A study of Mus musculus with 14 samples.

Results

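The liver response to concanavalin A (ConA) was compared between 4 mice that lack Ythdf1 (KO ConA) and 4 wild-type mice (WT ConA), which are 8 of the 14 liver RNA-seq libraries of the series, 1 per mouse. The members were chosen by genotype and treatment alone. All mice were C57BL/6 and 8 weeks old by their labels, and the treated ones received 8 mg/kg ConA into the tail vein 8 h before the liver was taken. The other 6 livers, 3 WT saline and 3 KO saline, came from mice given saline and serve here only to show what the genotypes differed in without ConA. KO stands for a mouse labelled Ythdf1-/-, a whole-body deletion made with CRISPR/Cas9, so that every cell type of the liver and every immune cell that enters it carries the deletion, and WT mice were littermates.

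YTHDF1 is a cytoplasmic protein that binds mRNA carrying N6-methyladenosine (m6A), a methyl mark on adenosines, and is known for promoting the translation of the mRNA it binds. The liver's YTH family also includes the paralogs YTHDF2, known for speeding mRNA decay, and YTHDF3. ConA is a plant lectin that activates T cells, and a single injection into mice causes an acute hepatitis in which T cells, macrophages, neutrophils and their cytokines injure hepatocytes. A liver library pools all of these cells, and fewer cells of a type cannot be told apart from less RNA per cell.

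Values are TPM, a gene's share of all transcripts corrected for its length and for the library total, as the authors deposited them. Genes were compared on log2(TPM + 1), which understates the fold change of low genes, and a log2 fold change is the KO mean minus the WT mean on that scale, given with its standard error (SE). A gene was tested when it reached 1 TPM in at least 4 of the 8 libraries, and it was called when its adjusted p in limma (Benjamini-Hochberg, over all genes tested) was under 0.05. The tables hold no read numbers, so depth is unknown and the spread between mice is the only error. Ythdf1 itself had 25.6, 21.4, 18.7 and 20.3 TPM in WT ConA replicates 1 to 4 and 25.9, 26.2, 15.5 and 21.3 TPM in KO ConA replicates 1 to 4, a log2 fold change of 0.02 ± 0.18. The deletion lies at exon 3 by the study's scheme, which is 80 of the 3184 bases of the gene's 5-exon transcript in GENCODE vM21 (chr2:180919135-180919214, GRCm38). Loss of these bases alone would remove little of the gene's total, so the total does not settle the genotype label. Ythdf2 (0.30 ± 0.23) and Ythdf3 (-0.01 ± 0.28) were not called.

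The libraries were those of a liver, with Alb, the gene of serum albumin, ranging from 37744 to 56543 TPM across the WT ConA mice and from 30310 to 42326 TPM across the KO ConA mice. WT ConA replicate 3 stood apart from the other 7 libraries along the first principal component and KO ConA replicate 3 along the second. WT ConA replicate 3 had the lowest value of its group for 58.6% of the genes tested, and KO ConA replicates 3 and 4 were both below replicates 1 and 2 for 52.97%. Counts are therefore also given without replicate 3 of both groups and with every library divided by its median gene-wise ratio to a geometric-mean profile. The T cell marker list, with 4 of its 23 genes tested, added up to 11.9 to 17.7 TPM per WT ConA mouse and 16.7 to 23.2 TPM per KO ConA mouse, and Cd3e and Cd4 stayed under 1 TPM in all 14 libraries. The trypsin gene Prss2, a pancreas marker, was at most 0.78 TPM.

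Few single genes were called between the genotypes after ConA. Of 10519 genes tested, 45 were called (0.428%), 36 higher in KO (0.342%) and 9 lower (0.0856%). Their log2 fold changes had sizes from 0.74 to 3.19, and the groups of all 45 did not overlap. Over all genes tested, all 4 KO mice lay above all 4 WT mice for 670 genes (6.37%) and below them for 432 (4.11%), and 1753 genes had an unadjusted p under 0.05, 1092 of them higher in KO. The median log2 fold change of all genes tested was 0.05 (-0.03 without WT ConA replicate 3), with 57.5% of them above 0.

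The number of calls depended on single mice and on scaling. The log2 fold changes of the called genes moved less. These genes were called on the same mice, with groups that did not overlap, which says nothing of how other genes moved. Leaving out WT ConA replicate 1, 2, 3 or 4 gave 65, 12, 15 and 8 calls, of which 31, 10, 14 and 6 were among the 45. Leaving out KO ConA replicate 1, 2, 3 or 4 gave 10, 13, 8 and 5 calls, of which 9, 11, 7 and 4 were among the 45. Only 42 of the 45 passed the filter in each fit without a KO ConA library. Wherever a called gene was tested in these 8 fits, its log2 fold change did not move by over 1.5 times. The largest adjusted p that any of the 45 reached there was 0.142. Cdk5rap1, Id1, Mid1 and Papss1 were called in each of the 8 fits. Rescaled libraries gave 34 calls, 21 higher and 13 lower, so the higher share went from 80.0% to 61.8%, and 23 of the 45 were among them. Without replicate 3 of both groups there were 30 calls, with 13 of the 45 among them, and 42 of the 45 were tested.

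**Figure D1:**
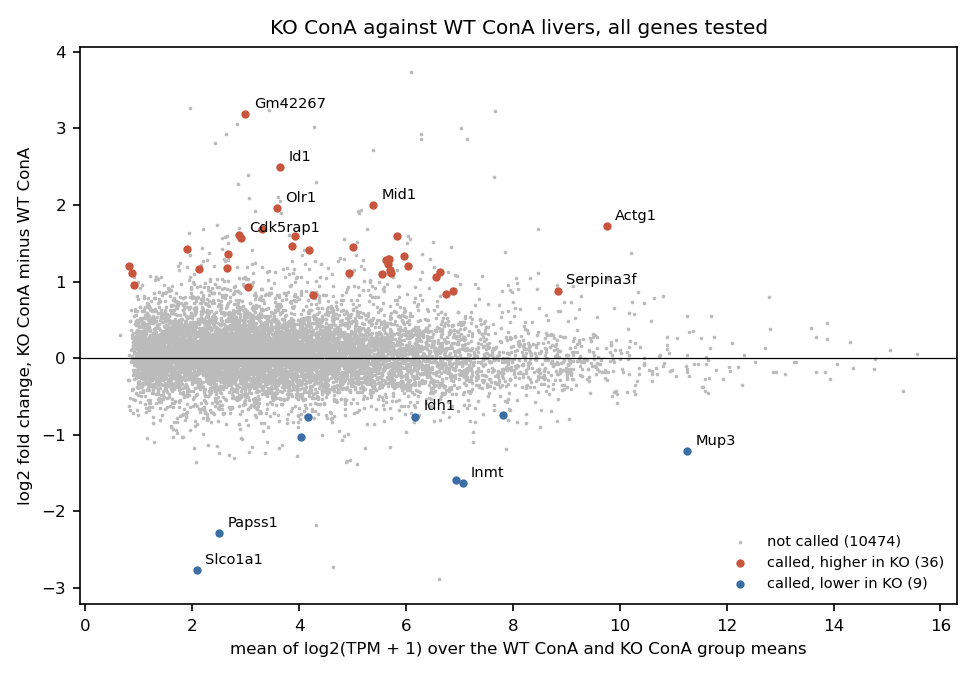
Log2 fold change of KO ConA against WT ConA (vertical axis) by mean level on the log2(TPM + 1) scale (horizontal axis) for the 10519 genes tested, 1 point per gene. The 36 genes called higher (red) and 9 called lower (blue) spread over the whole range of levels, while some uncalled genes (grey) have larger fold changes, up to 3.73, than most called ones.

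The rise with the smallest adjusted p was that of Mid1, a microtubule-bound E3 ubiquitin ligase encoded at chrX:169685199-169990798 (GRCm38.p6, the build of every RefSeq position here). Mid1 had 18.5, 17.2, 15.9 and 30.5 TPM in the 4 WT ConA mice and 74.8, 87.8, 82.2 and 84.3 TPM in the 4 KO ConA mice. All 4 KO values lay within a narrow range above the WT values, and the log2 fold change was 1.995 ± 0.19 with an adjusted p of 0.00251. In saline the gene was low in both genotypes, with 2.47, 1.64 and 2.39 TPM in WT and 1.64, 1.63 and 1.84 TPM in KO. The gene crosses the boundary of the pseudoautosomal region, and 72.6% of its 50-base stretches (the length of the reads) occur in no other gene of GENCODE vM21. Cdk5rap1, a methylthiotransferase that modifies mitochondrial tRNA (chr2:154222011-154373038), had 3.42, 4.06, 2.67 and 3.38 TPM in WT ConA and 14.6, 13.7, 9.69 and 10.3 TPM in KO ConA (1.57 ± 0.18, adjusted p 0.0123). Its saline values were 6.67, 3.45 and 3.98 TPM in WT and 6.52, 11.9 and 14.5 TPM in KO, a log2 fold change of 0.93 that was not called (adjusted p 0.235).

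Id1, an inhibitor of DNA binding that dimerises with bHLH transcription factors and is a direct target of BMP signaling, was at 4.89, 4.72, 2.62 and 5.30 TPM in WT ConA and 23.5, 16.4, 39.5 and 43.4 TPM in KO ConA. KO replicates 3 and 4 were the highest, and the log2 fold change was 2.49 ± 0.30 (adjusted p 0.0126). In the list of ID factors and BMP targets 9 of 10 tested genes had a log2 fold change above 0, with a median of 0.48 (0.30 without replicate 3 of both groups), and Id1 (chr2:152736251-152737410) was its 1 call. Id3 was at 159, 217, 245 and 189 TPM in WT and 236, 268, 546 and 566 TPM in KO (0.90 ± 0.28, adjusted p 0.155), with KO replicates 3 and 4 again above 1 and 2. Hamp, the gene of the iron hormone hepcidin and another BMP target, was at 4553, 5782, 7236 and 4380.5 TPM and 6321, 6686, 14752 and 12037 TPM (0.79 ± 0.28, adjusted p 0.193), and its groups overlapped. In saline Hamp was at 3469, 2557 and 2687 TPM in WT and 6939, 7826 and 3038 TPM in KO. The saline differences were 0.86 for Hamp, 0.44 for Id3 and 0.24 for Id1. The list's median in saline was 0.33, with 8 of 10 genes above 0. After ConA the groups did not overlap, KO higher, for 1 of the 10 (10%), against 6.37% of all genes tested.

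**Figure D2:**
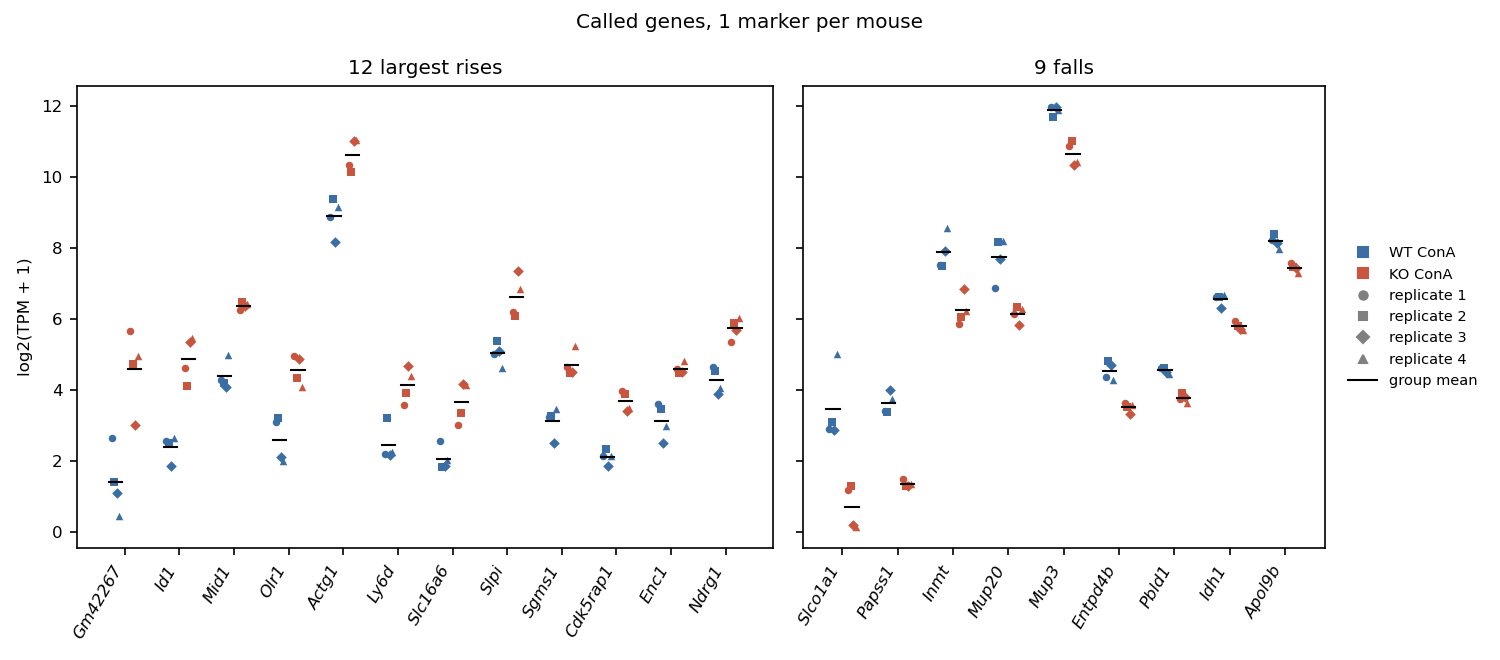
Log2(TPM + 1) (vertical axis) of the 12 called genes with the largest rises and of the 9 called genes that were lower in KO ConA, with 1 marker per mouse, shaped by replicate, and a bar at each group mean. WT ConA (blue) and KO ConA (red) do not overlap for any gene shown; Papss1 has the tightest KO group, at 1.45 to 1.83 TPM.

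By number, genes of the actin cytoskeleton held the most calls of the 61 gene lists, 4 of 32 tested. Some shorter lists held a larger share, such as 3 of 20 hypoxia genes and 3 of 14 male-biased liver genes. Of all genes tested 0.428% were called. Of 32 tested genes on the list of actin cytoskeleton genes and targets of serum response factor (SRF), the transcription factor that reads the state of actin, 28 had a log2 fold change above 0, the median was 0.61, and 4 were called higher and 0 lower. For 14 of them (43.8%) all KO mice lay above all WT mice, against 6.37% of all genes tested. Without replicate 3 of both groups the median of this list was 0.42. In saline its median was 0.29, with 24 of 32 genes above 0, against a median of -0.09 for all genes tested. Actg1, cytoplasmic gamma-actin, was at 469, 668, 284 and 572 TPM in WT ConA and 1281, 1116, 2041 and 2102 TPM in KO ConA (1.73 ± 0.28, adjusted p 0.0369). Its KO values were highest in replicates 3 and 4, and its lowest WT value was that of replicate 3. Only 43.3% of its 50-base stretches occur in no other gene, so reads of other actin genes may be counted with it. The tropomyosins Tpm4 (39.0, 37.3, 22.9 and 40.0 TPM in WT, 81.4, 60.8, 88.6 and 78.2 TPM in KO) and Tpm1 (28.0, 49.3, 27.3 and 39.3 TPM and 74.8, 64.7, 81.6 and 87.8 TPM), which lie along actin filaments, rose by log2 fold changes of 1.15 ± 0.19 and 1.11 ± 0.20, with adjusted p values of 0.0369 and 0.039. Myl12a, a regulatory light chain of non-muscle myosin, was at 84.0, 79.5, 75.4 and 78.1 TPM in WT and 138, 114, 179.8 and 147 TPM in KO (0.84 ± 0.15, adjusted p 0.0369). Ccn1, a matricellular protein gene that SRF and YAP induce, had the largest fold change of the list, at 5.93, 4.69, 4.04 and 4.94 TPM and 18.2, 9.89, 47.7 and 38.6 TPM (2.10 ± 0.40, adjusted p 0.0534), and was not called.

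Tubulins gave a smaller difference, and their median in saline was 0.27. Of 10 tested tubulin genes 9 had a log2 fold change above 0, with a median of 0.40, and the beta-tubulin gene Tubb6 was called, with 48.9, 40.2, 40.9 and 40.4 TPM in WT ConA and 79.6, 76.2, 143 and 110.2 TPM in KO ConA (1.20 ± 0.20, adjusted p 0.0369). Tuba1b was at 101, 85.9, 70.6 and 68.9 TPM and 119, 109, 153 and 114 TPM, and although its groups did not overlap it was not called (0.60 ± 0.16, adjusted p 0.108). Markers of stellate cells and fibroblasts, cells rich in actin, added up to 64.4 to 152 TPM per WT ConA mouse and 109 to 225 TPM per KO ConA mouse, and their part in the actin result was not tested.

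Promoter sequences from RefSeq (250 bases before each gene's start, GRCm38.p6) were searched on both strands for motifs of factors that act downstream of SRF, ERK and inflammatory signaling. A window was at hand for 36 of the 45 called genes, 28 higher and 8 lower. A gene can have several annotated starts and so several windows, and it counted as holding a motif when any of them did, so that the share of the 8505 tested genes with a window is given beside that of all 32851 windows. The CArG box, to which SRF binds, was in the windows of Actg1 and Dusp5, 2 of the 28 higher genes, against 1.29% of the tested genes and 1.47% of all windows. The AP-1 site TGACTCA, bound by Fos and Jun dimers, was in those of AA467197, Anxa2, Mmp7, Myl12a, Olr1 and Sgms1, 6 of the 28, and in that of Apol9b among the 8 lower genes, against 4.10% and 4.46%. The NF-kB site was in those of Bcl2l1, Chil1, Cxcl3 and Maff, 4 of the 28, against 5.46% and 3.90%. The cyclic AMP response element TGACGTCA was in that of Maff (3.08% and 1.55%) and the STAT site TTCNNNGAA in that of Serpina3f (7.33% and 7.02%). The core of the hypoxia response element, ACGTG, was in 13 of the 28 and 3 of the 8, against 25.8% and 16.6%. None of these motifs contains another. Stretches around the matches are printed for both genes with a CArG box, for Myl12a, the gene of the actin list with an AP-1 site, and for the protease gene Mmp7, each read in the gene's own direction with the motif in capitals.
Actg1, CArG box, chr11:120348551-120348610, minus strand: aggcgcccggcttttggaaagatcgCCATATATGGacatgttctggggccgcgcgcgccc
Dusp5, first CArG box, chr19:53529038-53529097, plus strand: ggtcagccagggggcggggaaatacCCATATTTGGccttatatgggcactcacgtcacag
Dusp5, second CArG box, chr19:53529048-53529107, plus strand: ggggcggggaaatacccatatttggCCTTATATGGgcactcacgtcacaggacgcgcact
Myl12a, AP-1 site, chr17:71002639-71002695, minus strand: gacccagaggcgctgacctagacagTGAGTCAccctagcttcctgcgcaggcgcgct
Mmp7, AP-1 site, chr9:7692002-7692058, plus strand: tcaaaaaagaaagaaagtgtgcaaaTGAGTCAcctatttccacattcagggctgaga
In Dusp5 the boxes stand next to each other. The CArG boxes begin 72 to 90 bases before the start, and the AP-1 sites 63 bases before it in Mmp7 and 137 bases before it in Myl12a. The AP-1 matches of Apol9b, Olr1 and Sgms1 lie before alternative starts inside those genes. A match describes the letters in the window only.

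Immediate early transcription factors, which cells transcribe within minutes of a growth or stress signal without new protein synthesis, had 19 of 20 tested members above 0. Their median log2 fold change was 0.89, the highest of the lists with 10 or more tested genes, and all KO mice lay above all WT mice for 11 of the 20 (55.0%), against 6.37% of all genes tested. Only Maff, a small Maf factor, was called: 32.5, 35.1, 26.4 and 30.2 TPM in WT ConA and 51.0, 57.8, 86.2 and 80.6 TPM in KO ConA (1.10 ± 0.18, adjusted p 0.0369). Atf3, a stress-induced factor, was at 33.6, 45.7, 24.1 and 47.9 TPM in WT and 70.1, 81.5, 188 and 151 TPM in KO (1.6 ± 0.32, adjusted p 0.0617). Csrnp1 was at 27.0, 28.4, 20.2 and 26.0 TPM and 38.5, 44.5, 58.5 and 70.9 TPM (1.01 ± 0.20, adjusted p 0.0606). Fos and Egr1, the classical targets of ERK and SRF and picked here after their values were seen, showed how the KO mice fell into pairs. Fos was at 2.70, 3.98, 1.87 and 4.14 TPM in WT and 8.06, 8.02, 33.0 and 31.1 TPM in KO (2.09 ± 0.45, adjusted p 0.0667). Egr1 was at 19.9, 18.3, 11.5 and 20.4 TPM in WT and 34.3, 26.6, 117 and 175 TPM in KO (1.89 ± 0.51, adjusted p 0.11). Replicates 3 and 4 of KO ConA were several times above replicates 1 and 2 for both genes, and every KO value still exceeded every WT value. Among the 36 genes called higher, KO replicates 3 and 4 were both above 1 and 2 for 16 (44.4%), against 10.9% of all genes tested.

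Genes that ERK signaling induces and that in turn damp it were higher by sign for 15 of 15, with a median of 0.63, and for 9 of them (60%) all KO mice lay above all WT mice, against 6.37% of all genes tested. Dusp5, a nuclear phosphatase of ERK, was called, at 1.31, 1.31, 0.99 and 1.55 TPM in WT ConA and 3.80, 3.45, 7.01 and 7.09 TPM in KO ConA (1.42 ± 0.22, adjusted p 0.0369). The MAP kinase phosphatases Dusp16 (1.17 ± 0.26) and Dusp10 (0.85 ± 0.19) had an adjusted p of 0.0669 and 0.0674. Dusp16 was at 11.3, 12.9, 6.06 and 16.6 TPM in WT and 24.3, 26.8, 21.7 and 32.8 TPM in KO. Hbegf, a ligand of the EGF receptor upstream of ERK, was at 1.69, 1.26, 1.12 and 0.84 TPM and 4.36, 3.0, 7.51 and 3.08 TPM (1.24 ± 0.24, adjusted p 0.0606), while the median of the 8 tested genes of the EGF family and HGF axis was 0.20 and turned to -0.07 without replicate 3 of both groups.

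**Figure D3:**
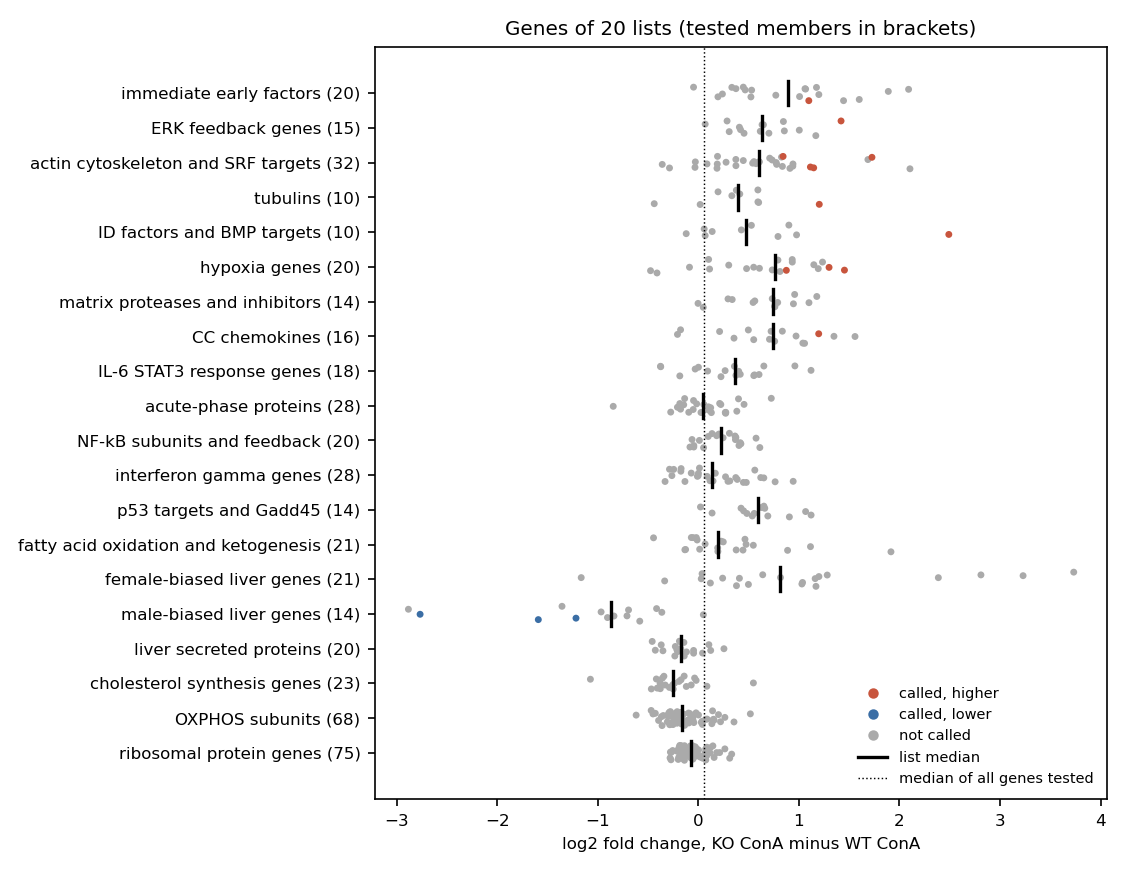
Log2 fold change of KO ConA against WT ConA (horizontal axis) for each tested gene of 20 lists (rows, number of tested genes in brackets), with called genes coloured, a bar at each list's median and a dotted line at the median of all genes tested, 0.05. Medians run from 0.89 for the immediate early factors to -0.87 for the male-biased liver genes, and most genes of every list are grey, that is, not called.

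Genes of the response to low oxygen and of glucose use held 3 calls. They were 3 of the 20 tested genes of the hypoxia list, against 0.428% of all genes tested. On the hypoxia list 17 of 20 tested genes had a log2 fold change above 0, the median was 0.76, and 7 (35%) were higher in every KO mouse than in every WT mouse, against 6.37% of all genes tested. Slc2a1, the glucose transporter GLUT1, was at 35.6, 33.8, 23.6 and 36.5 TPM in WT ConA and 58.2, 70.4, 106 and 94.3 TPM in KO ConA (1.3 ± 0.21, adjusted p 0.0369). Ndrg1 was at 24.0, 22.4, 13.9 and 15.8 TPM and 40.1, 58.1, 50.5 and 64.8 TPM (1.45 ± 0.21, adjusted p 0.0328). Pkm, a pyruvate kinase of which the hepatocyte form is encoded by another gene, was at 87.1, 76.0, 86.0 and 94.4 TPM and 142, 163, 201 and 133 TPM (0.87 ± 0.15, adjusted p 0.0369). Reads of Pkm may be shared, as 65.6% of its stretches are found in no other gene. Fuel genes of hepatocytes were not called. Pdk4, which blocks pyruvate oxidation in fasting, was at 2.69, 4.77, 1.81 and 6.81 TPM in WT and 14.4, 12.5, 11.7 and 34.7 TPM in KO (1.92 ± 0.38, adjusted p 0.0613), and 6 of the 21 tested genes of fatty acid oxidation and ketogenesis (28.6%, against the same 6.37%) lay higher in all KO mice.

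Among cytokines and chemokines, 3 were called, all from low levels. They were 1 of 9 tested cytokines, 1 of 7 neutrophil-attracting chemokines and 1 of 16 CC chemokines. Of 2 tested CXCR3 chemokines 0 were called, and of all genes tested 0.428%. Il33, an alarmin that damaged cells release, was at 3.97, 3.20, 1.52 and 3.71 TPM in WT ConA and 6.47, 12.2, 8.74 and 10.1 TPM in KO ConA (1.36 ± 0.25, adjusted p 0.049996). Cxcl3, a chemokine for neutrophils, was at 0.48, 0.33, 0.27 and 0.33 TPM in WT and 1.45, 1.21, 2.03 and 1.81 TPM in KO (0.95 ± 0.15, adjusted p 0.0369). Ccl21a, which guides dendritic and T cells through the receptor CCR7, was at 0.57, 0.00, 0.19 and 0.00 TPM and 1.75, 1.4, 2.83 and 1.04 TPM (1.20 ± 0.22, adjusted p 0.0497). Cxcl3 and Ccl21a were under 1 TPM in every WT ConA mouse and passed the filter only through the 4 KO ConA mice. With such WT values the filter admits a gene only if every KO mouse is higher, so their direction and lack of overlap were fixed by it. Ccl21a is listed at 0 in a pair of WT mice, only 28.4% of its stretches are found in no other gene because of near-identical Ccl21 copies, and it was also higher in KO saline (0.70, 1.77 and 1.90 TPM in WT saline, 8.77, 10.1 and 5.10 TPM in KO saline, adjusted p 0.0196). On the list of CC chemokines 14 of 16 tested genes had a log2 fold change above 0 and the median was 0.74, or 0.38 without replicate 3 of both groups. Ccl7, which attracts monocytes, was at 24.8, 17.5, 10.4 and 13.7 TPM in WT and 33.2, 36.2, 104 and 43.7 TPM in KO (1.56 ± 0.35, adjusted p 0.0674), with the highest value in KO replicate 3.

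The cytokines most tied to ConA hepatitis gave no call. Ifng, the interferon gamma gene of activated T and NK cells, was at 3.86, 2.46, 1.63 and 1.01 TPM in WT ConA and 6.05, 6.28, 12.1 and 5.02 TPM in KO ConA (1.38 ± 0.30, adjusted p 0.0674), and every KO value was above every WT value. Csf3, the gene of the neutrophil growth factor G-CSF, was at 1.12, 0.82, 0.77 and 2.21 TPM and 2.98, 3.48, 14.6 and 6.40 TPM (1.64 ± 0.39, adjusted p 0.0739). Tnf lay at 5.39, 4.02, 5.64 and 3.37 TPM in WT and 5.03, 4.45, 3.96 and 2.30 TPM in KO (-0.20 ± 0.22). Cxcl1 was at 453, 361, 356 and 447 TPM and 358, 465, 378 and 401 TPM (-0.01 ± 0.13), and the groups of both Tnf and Cxcl1 overlapped. Il6, a cytokine that induces acute-phase genes, stayed between 0.07 and 0.21 TPM in WT mice and between 0.15 and 0.59 TPM in KO mice and was not tested.

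Lists of genes that respond to cytokines gave no call. All KO mice lay above all WT mice for 7 of 28 acute-phase genes (25%) and 4 of 20 NF-kB genes (20%). The same held for 3 of 18 IL-6 and STAT3 genes (16.7%) and 1 of 28 interferon gamma genes (3.57%), against 6.37% of all genes tested. All KO mice lay below all WT mice for 1 gene each of the acute-phase, IL-6 and interferon gamma lists and for 0 NF-kB genes. The 28 tested interferon gamma genes had a median of 0.13, or 0.04 without WT ConA replicate 3, and of these Irf1, an interferon-induced transcription factor, was at 345, 352, 213 and 227 TPM in WT ConA and 366, 425, 378 and 376 TPM in KO ConA (0.48 ± 0.18, adjusted p 0.21). NF-kB subunits and feedback genes had a median of 0.23 over 20 tested genes and 0 calls, led by Nfkb1 at 19.1, 22, 13.4 and 23.8 TPM and 31.8, 33.5, 25.8 and 28.8 TPM (0.61 ± 0.18, adjusted p 0.137). The IL-6 and STAT3 response genes had a median of 0.37 over 18 tested genes. Tnfrsf12a, the receptor of the cytokine TWEAK, was at 54.3, 72.0, 75.2 and 101 TPM in WT and 155, 117, 199.97 and 188 TPM in KO and came closest to a call of all genes on these lists (1.12 ± 0.21, adjusted p 0.0534). The acute-phase proteins had a median of 0.05 over 28 tested genes, the same as all genes tested, and -0.02 in rescaled libraries. Their members went both ways, with Serpina3m at 1054, 1152, 744 and 1535 TPM in WT and 1816, 1785, 1875 and 1708 TPM in KO (0.73 ± 0.19, adjusted p 0.099) and Saa4, a serum amyloid A of high-density lipoprotein, at 338, 467, 339.7 and 518 TPM and 286, 327, 151 and 187 TPM (-0.85 ± 0.25, adjusted p 0.125).

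Serpina3f, a serpin of the antichymotrypsin family, was called higher in KO ConA, at 416, 386, 252 and 321 TPM in WT and 660.0, 669.5, 618 and 549 TPM in KO (0.88 ± 0.16, adjusted p 0.049996). In saline the order was the other way, with 2.85, 4.07 and 4.76 TPM in WT and 1.01, 1.25 and 1.06 TPM in KO (-1.12, adjusted p 0.0337). Slpi, an inhibitor of leukocyte proteases, was at 31.3, 40.9, 33.4 and 23.4 TPM in WT and 72.5, 67.2, 163 and 114 TPM in KO (1.59 ± 0.27, adjusted p 0.0369). Chil1, a chitinase-like lectin, was at 10.9, 13.7, 12.97 and 16.3 TPM and 24.0, 24.3, 22.7 and 27.3 TPM (0.83 ± 0.15, adjusted p 0.0489). Slpi was uneven in saline, at 4.29, 0.58 and 0.78 TPM in WT and 25.4, 2.28 and 13.5 TPM in KO, and was not called there (adjusted p 0.317).

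Mmp7, the protease matrilysin, was at 3.34, 3.72, 2.15 and 3.77 TPM in WT ConA and 10.02, 8.89, 7.84 and 7.48 TPM in KO ConA (1.18 ± 0.18, adjusted p 0.0369). Olr1, the scavenger receptor LOX-1 for oxidised LDL, was at 7.59, 8.29, 3.32 and 2.97 TPM in WT and 30.1, 19.3, 28.2 and 16.1 TPM in KO (1.96 ± 0.31, adjusted p 0.0369), and at most 0.03 TPM in any saline liver. On the list of matrix proteases and inhibitors, which does not include Mmp7, 13 of 14 tested genes had a log2 fold change above 0 and the median was 0.75. Plaur, the urokinase receptor, was at 12.6, 8.42, 6.16 and 6.32 TPM and 18.3, 16.2, 31.5 and 15.3 TPM (1.18 ± 0.26, adjusted p 0.0674). Timp1, an inhibitor of matrix metalloproteinases, was at 17.2, 12.1, 18.9 and 15.8 TPM and 22.2, 37.7, 60.5 and 29.6 TPM (1.10 ± 0.27, adjusted p 0.0811). Extracellular matrix genes were higher by sign for 15 of 17, with a median of 0.40 (0.20 without replicate 3 of both groups) and 0 calls. Their median in saline was 0.72. Thbs1, thrombospondin, was at 2.55, 2.73, 0.79 and 2.24 TPM in WT ConA and 7.25, 5.73, 6.61 and 4.23 TPM in KO ConA (1.21 ± 0.25, adjusted p 0.0651). The fibroblast marker sums given above move with this result, in which their part was not tested, and in saline they ranged from 41.0 to 160 TPM among WT mice and from 186 to 301 TPM among KO mice.

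The other called rises were of single genes with varied roles. Bcl2l1, which encodes the anti-apoptotic protein Bcl-xL (chr2:152758732-152833803), was at 84.1, 64.6, 48.0 and 67.2 TPM in WT ConA and 112, 124, 159 and 156 TPM in KO ConA (1.06 ± 0.18, adjusted p 0.0369), while the 15 tested genes of the BCL2 family had a median of 0.20. Sgms1, sphingomyelin synthase, was at 8.51, 8.73, 4.66 and 10.1 TPM and 23.9, 21.2, 21.8 and 37.0 TPM (1.59 ± 0.24, adjusted p 0.0369). Odc1, ornithine decarboxylase of polyamine synthesis, was at 88.2, 73.2, 52.4 and 58.2 TPM and 139, 123, 186 and 145 TPM (1.13 ± 0.19, adjusted p 0.0369), with 57.8% of its stretches found in no other gene. Slc16a6, a monocarboxylate transporter, was at 4.90, 2.59, 2.61 and 3.09 TPM and 7.05, 9.27, 17.2 and 16.7 TPM (1.602 ± 0.28, adjusted p 0.0417), and the tetraspanin gene Cd63 at 38.2, 30.7, 48.1 and 38.0 TPM and 73.5, 76.5, 149 and 108 TPM (1.33 ± 0.23, adjusted p 0.0369). Syt12, a synaptotagmin, was at 27.6, 43.2, 27.4 and 32.2 TPM and 74.3, 78.6, 67.4 and 86.3 TPM (1.23 ± 0.16, adjusted p 0.0272), with every KO mouse far above the highest WT mouse. Ly6d, a lipid-anchored surface protein, was at 3.61, 8.31, 3.5 and 3.78 TPM and 11.1, 14.1, 24.5 and 20.2 TPM (1.69 ± 0.29, adjusted p 0.0369). Enc1, a kelch protein, was at 11.1, 9.99, 4.65 and 6.88 TPM and 23.1, 21.3, 21.9 and 27.3 TPM (1.47 ± 0.23, adjusted p 0.0369). The rest of the 36 were Anxa2, an annexin (1.28 ± 0.19), Cdc42ep5, an effector of the GTPase Cdc42 (1.17 ± 0.19), the phospholipase C gene Plcd3 (1.11), AA467197 (1.41), D10Wsu102e (1.11) and Mob3a (0.92), a MOB kinase activator of which 28.9% of the stretches are found in no other gene. The pseudogene Gm42267 had the largest fold change, 3.19 ± 0.55 (adjusted p 0.0378), and varied most, at 5.27, 1.67, 1.14 and 0.36 TPM in WT ConA and 49.5, 25.4, 7.10 and 29.9 TPM in KO ConA.

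By position, 5 of the 45 called genes lie on chromosome 2, which also carries Ythdf1 (chr2:180904377-180920936), namely AA467197, Bcl2l1, Cdk5rap1, Id1 and Slpi. That is 11.1% of the called genes, against 7.61% of the genes tested.

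The strongest single difference was a fall. Papss1, which encodes an enzyme that makes PAPS, the sulfate donor of all sulfation reactions (chr3:131564764-131643671), was at 9.73, 9.45, 15.1 and 12.6 TPM in WT ConA and 1.83, 1.46, 1.45 and 1.55 TPM in KO ConA. The KO values were within 0.38 TPM of each other and far below every WT value, and the log2 fold change was -2.28 ± 0.18 with the smallest adjusted p of all genes, 6.85e-04. In saline Papss1 was at 5.66, 4.94 and 5.92 TPM in WT and 3.36, 3.95 and 4.41 TPM in KO and was not called (adjusted p 0.447). The 16 tested genes of the sulfation list had a median of -0.06 (-0.17 without WT ConA replicate 3), and Papss1 was its 1 call. Slc26a1, a sulfate transporter, was at 12.8, 13.7, 10.2 and 7.33 TPM in WT ConA and 7.95, 6.77, 5.38 and 6.48 TPM in KO ConA (-0.63 ± 0.20, adjusted p 0.164).

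Other called falls were of single genes. Inmt, an N-methyltransferase of indoleamines, was at 183, 177, 241 and 379.8 TPM in WT ConA and 57.0, 65.0, 113 and 74.3 TPM in KO ConA (-1.63 ± 0.26, adjusted p 0.0369). Idh1, the cytosolic isocitrate dehydrogenase that makes NADPH, was at 97.0, 96.9, 78.3 and 102.02 TPM and 60.3, 54.8, 51.9 and 51.0 TPM (-0.76 ± 0.13, adjusted p 0.0369). Pbld1 was at 23.8, 23.6, 21.9 and 20.9 TPM and 12.4, 14.2, 12.98 and 11.5 TPM (-0.77 ± 0.13, adjusted p 0.0369). Apol9b, an apolipoprotein L, was at 300.4, 333, 282 and 248 TPM and 189.8, 174, 171 and 156 TPM (-0.74 ± 0.13, adjusted p 0.0369), and 48.6% of its stretches are found in no other gene. For Entpd4b, a nucleotide phosphatase gene at 19.6, 27.0, 25.3 and 18.6 TPM and 11.3, 10.6, 9.05 and 10.9 TPM (-1.03 ± 0.16, adjusted p 0.0369), 0.0% are, so its reads cannot be told apart from those of its neighbour copy.

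The remaining called falls, Slco1a1, Mup3 and Mup20, belong to the genes that male mouse livers express more than female ones. Slco1a1, an uptake transporter of organic anions and bile acids, was at 6.46, 7.55, 6.38 and 31.0 TPM in WT ConA and 1.28, 1.44, 0.15 and 0.10 TPM in KO ConA (-2.77 ± 0.46, adjusted p 0.0369). WT replicate 4 was several times above the other WT mice. Mup3, a major urinary protein, was at 3978, 3275, 3993 and 3737 TPM and 1851, 2070.3, 1276 and 1362 TPM (-1.22 ± 0.17, adjusted p 0.0315). Mup20, the pheromone darcin, was at 116, 285, 207 and 294 TPM and 69.5, 79.1, 55.9 and 76.8 TPM (-1.59 ± 0.26, adjusted p 0.0369), with 49.5% of its stretches found in no other gene. Over the male-biased list 13 of 14 tested genes had a log2 fold change below 0, the median was -0.87, and for 8 (57.1%) all KO mice lay below all WT mice, against 4.11% of all genes. C8b, a complement protein, was at 103, 93.2, 80.9 and 100.1 TPM in WT and 60.6, 63.1, 40.0 and 48.1 TPM in KO (-0.84 ± 0.16, adjusted p 0.0606). Serpina1e, a protease inhibitor of the antitrypsin family, was at 248, 164, 260.4 and 480.0 TPM and 57.9, 140.2, 12.8 and 14.2 TPM (-2.88 ± 0.65, adjusted p 0.0674).

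Female-biased liver genes went the other way, but unevenly among the WT mice. Of 21 tested genes 19 had a log2 fold change above 0 and the median was 0.82, or 0.42 without replicate 3 of both groups, with 0 calls. All KO mice lay above all WT mice for 1 of the 21 (4.76%), against 6.37% of all genes tested. Sult2a1, a sulfotransferase of bile acids and steroids, was at 214, 12.8, 10.2 and 2.74 TPM in WT ConA and 123, 165, 441 and 426 TPM in KO ConA (3.73 ± 0.99, adjusted p 0.102). WT replicate 1 lay among the KO mice for this gene and for Cyp3a16, at 8.90, 0.13, 0.15 and 0.30 TPM in WT and 6.73, 10.99, 29.3 and 13.4 TPM in KO (2.81 ± 0.66, adjusted p 0.0719). Cyp2a4 went against the list, at 192, 30.9, 62.5 and 92.5 TPM in WT and 33.6, 34.8, 38.3 and 28.7 TPM in KO (-1.16 ± 0.42). Acot3, an acyl-CoA thioesterase, was at 1.23, 1.64, 0.75 and 1.22 TPM and 3.09, 2.63, 5.45 and 5.63 TPM (1.20 ± 0.23, adjusted p 0.058). In saline the median difference was -0.97 for the male-biased and 0.62 for the female-biased list.

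The labels give no sex for these mice, and the study's text describes male mice. The Y-linked genes Ddx3y and Eif2s3y were at most 0.02 and 0.07 TPM in all 14 libraries and Uty was at 0.87 to 2.12 TPM. Cyp4a12a, a cytochrome P450 of male livers, lay between 0.10 and 1.70 TPM in WT ConA mice and between 0.00 and 0.06 TPM in KO ConA mice, and Cyp2b9, one of female livers, at 33.7 to 77.7 TPM and 49.0 to 95.1 TPM. Near-absent Ddx3y and Eif2s3y do not match the male sex that the study describes, while Uty was detected, so the sex of these mice is not settled. What these values have to do with the differences in sex-biased genes was not tested.

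**Figure D4:**
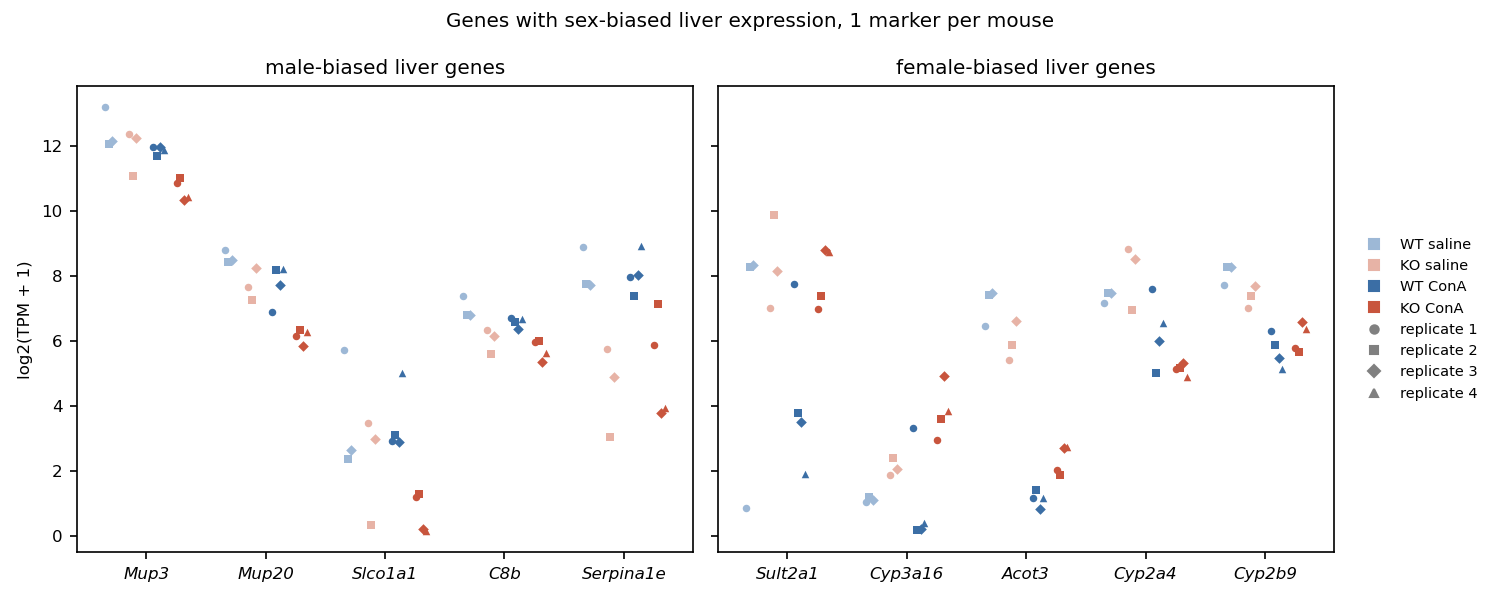
Log2(TPM + 1) (vertical axis) of 5 male-biased and 5 female-biased liver genes in all 14 mice, 1 marker per mouse, shaped by replicate and coloured by group. The male-biased genes are lower in all 4 KO ConA than in all 4 WT ConA mice, whereas for Sult2a1 and Cyp3a16 WT ConA replicate 1 reaches the KO ConA mice and for Cyp2a4 the KO ConA mice are not higher.

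Other hepatocyte functions were lower by sign with few or no calls. Secreted liver proteins had a log2 fold change below 0 for 16 of 20 tested genes, with a median of -0.18, and for 5 of them (25%, against 4.11% of all genes) all KO mice were below all WT mice. Fetub, the gene of fetuin-B, was at 806, 641, 885 and 962 TPM in WT ConA and 580.1, 608, 581 and 599.8 TPM in KO ConA (-0.46 ± 0.14, adjusted p 0.134). Nr1h4, the bile acid receptor FXR, was at 34.7, 32.9, 50.03 and 81.2 TPM and 24.6, 19.4, 13.5 and 15.04 TPM (-1.35 ± 0.28, adjusted p 0.0664). Of 38 tested cytochrome P450 genes 15 were above 0 and the median was -0.14 (-0.22 without replicate 3 of both groups). Cyp2c55 was at 3.74, 4.82, 2.50 and 3.18 TPM in WT and 1.11, 0.99, 1.96 and 1.37 TPM in KO (-0.94 ± 0.20, adjusted p 0.0664), whereas Cyp4a10, a fatty acid hydroxylase, was at 158, 214, 199 and 160.3 TPM and 346, 231, 314 and 507 TPM (0.89 ± 0.22, adjusted p 0.0811). Cholesterol synthesis genes were below 0 for 21 of 23, with a median of -0.25, and Herpud1, an unfolded protein response gene, was at 501, 428, 528 and 523 TPM and 360.3, 329, 168 and 246 TPM (-0.89 ± 0.21, adjusted p 0.0766).

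The energy and translation machinery differed little. Subunits of oxidative phosphorylation had a median of -0.17 over 68 tested genes (-0.10 without WT ConA replicate 3), 52 of them below 0. Ndufb4, a subunit of complex I, was at 151, 147, 208 and 167 TPM in WT ConA and 109.5, 108, 107 and 109 TPM in KO ConA (-0.62 ± 0.13, adjusted p 0.0667), while Atp5b of the ATP synthase went up by value, at 531, 604, 401 and 411 TPM and 721, 617, 724 and 689.6 TPM (0.52 ± 0.15, adjusted p 0.125). The 75 ribosomal protein genes had a median of -0.07 (-0.03 without WT ConA replicate 3), with log2 fold changes from -0.28 to 0.33 and 0 calls.

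Marker lists of other cells in the liver gave 1 call in all, Ccl21a, which passed the filter only through the KO ConA mice. It was 1 of 5 tested genes of the lymphatic list, against 0.428% of all genes tested. Neutrophil markers had a log2 fold change above 0 for 14 of 16 tested genes, with a median of 0.53. For 1 of the 16 (6.25%) all KO mice lay above all WT mice, against 6.37% of all genes tested. The summed level of the list went the other way by value, from 12256 to 18411 TPM per WT ConA mouse and from 11852 to 13977 TPM per KO ConA mouse. Nearly all of that sum was Lcn2, lipocalin 2, which inflamed hepatocytes are also known to make, at 11859, 11906, 18023 and 14732 TPM and 12011, 12948, 12686 and 11404 TPM (-0.18 ± 0.16). Camp, an antimicrobial peptide of neutrophil granules, was at 3.37, 1.83, 1.4 and 1.99 TPM in WT ConA and 4.35, 6.12, 5.2 and 3.96 TPM in KO ConA (0.93 ± 0.21, adjusted p 0.0674). S100a8, the abundant calcium-binding protein of neutrophils, was at 253, 134, 161 and 218 TPM and 420.4, 452, 378 and 186 TPM (0.87 ± 0.28, adjusted p 0.165). Monocyte and macrophage markers had a median of 0.35 over 14 tested genes and Kupffer cell markers 0.17 over 11, which went to 0.12 and -0.11 without replicate 3 of both groups and to 0.17 and 0.09 without WT ConA replicate 3. Their sums overlapped, at 1777 to 3022 TPM in WT ConA against 1775 to 2570 TPM in KO ConA for the former, and at 89.3 to 157 TPM against 67.7 to 128 TPM for the latter. Spp1, osteopontin, was at 23.1, 19.8, 10.7 and 16.3 TPM and 27.7, 47.2, 25.4 and 36.9 TPM (0.94 ± 0.25, adjusted p 0.102). The cholangiocyte list, which also holds Spp1, added up to 19.5 to 33.1 TPM per WT ConA mouse and 38.8 to 57.7 TPM per KO ConA mouse, and to 48.9 to 61.5 TPM and 85.2 to 97.8 TPM in saline. Spp1 alone was the larger part of this sum in every ConA mouse. The list's 5 tested genes had a median of 0.36, or 0.09 without replicate 3 of both groups, and 0 calls. The sinusoidal endothelial list, with a median of 0.37 over 10 tested genes (0.23 without replicate 3 of both groups), summed to 29.3 to 68.9 TPM and 34.4 to 75.5 TPM.

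The saline mice show which of these differences were there without ConA. WT saline replicates 2 and 3 differed less than any other pair of replicates (median size of their log2 ratio 0.0689, against 0.120 to 0.432), so they were averaged and counted as 1 sample. With all groups in 1 limma fit, 38 of 11327 genes (0.335%) were called between KO saline and WT saline, and only Ccl21a and Serpina3f of the 45 were among them. The saline difference had the same sign as the ConA difference for 21 of the 36 higher and 9 of the 9 lower genes. Among these, Slco1a1 was at 51.7, 4.15 and 5.21 TPM in WT saline and 10.1, 0.26 and 6.80 TPM in KO saline (-1.85, adjusted p 0.5), and Entpd4b at 24.6, 21.9 and 21.1 TPM and 11.5, 11.4 and 14.1 TPM (-0.85, adjusted p 0.0727). Gm42267 was at 0.01, 0.70 and 0.49 TPM in WT saline and 12.8, 6.83 and 5.77 TPM in KO saline (2.83, adjusted p 0.101).

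The interaction term, which tests whether the genotype difference after ConA differs from that in saline, was called for 28 of 11327 genes (0.247%), 6 of them among the 45. For Mid1 the difference was 1.995 after ConA and -0.25 in saline (interaction 2.25, adjusted p 0.00524), and for Papss1 -2.28 and -0.42 (-1.87, 0.00633). Serpina3f turned over, from -1.12 in saline to 0.88 after ConA (1.996, adjusted p 0.00631). Maff (1.84, adjusted p 0.0456), Slc2a1 (1.68, 0.046) and Sgms1 (1.84, 0.046) were the others, each with a saline difference below 0 and a rise after ConA. Egr1, not among the 45, had the largest of the 28 called interactions, 4.42 (adjusted p 0.0354), with 25.1, 16.6 and 18.2 TPM in WT saline and 2.89, 2.71 and 2.76 TPM in KO saline against the values after ConA given above. Serpina3m (2.19, 0.00633) and Ndufb4 (-1.30, 0.0213) were also called. Id1 (2.25, adjusted p 0.0824) and Actg1 (1.93, 0.102) had interactions of like size that were not called. The ConA differences of the 4-group fit share no libraries with the saline ones, but the calls rest on a WT saline group of 2 after averaging, and leaving out 1 library moved the interaction count between 7 and 71.

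**Figure D5:**
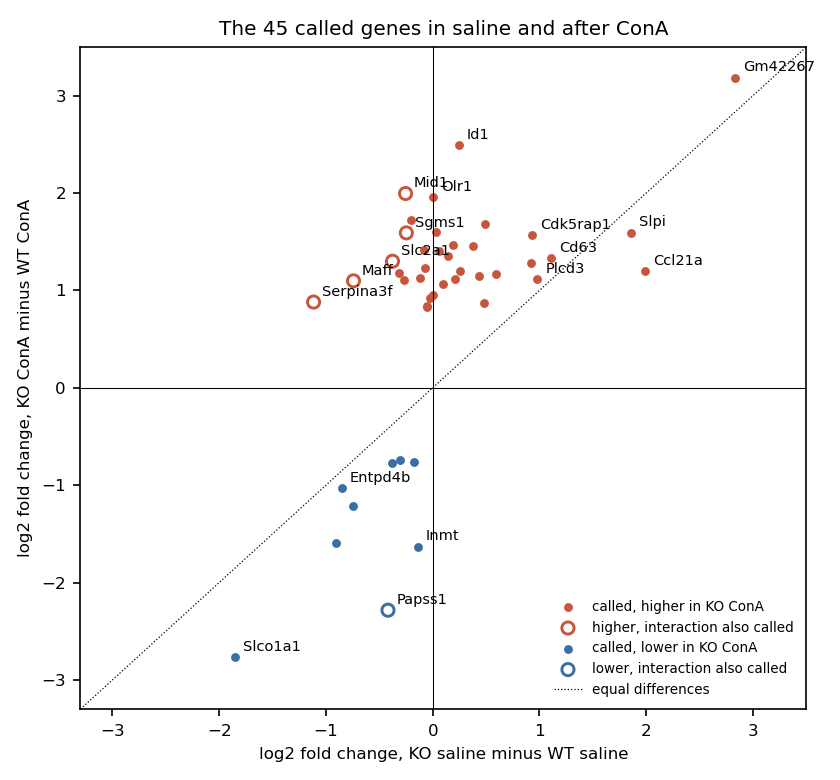
Log2 fold change between KO and WT in saline (horizontal axis) and after ConA (vertical axis) for the 45 called genes, 1 point per gene, with open rings for the 6 genes whose interaction was also called and a dotted line where both differences are equal. Most red points lie near a saline difference of 0, and Cdk5rap1, Cd63, Plcd3, Slpi, Gm42267, Entpd4b and Slco1a1 lie nearer to the dotted line.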

How the data were processed

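The authors sequenced liver RNA of 14 mice (BGISEQ-500, single-end, read length 50 bases) and deposited 1 table of TPM values per mouse, over 17656 genes. The submitters' processing notes name Bowtie2, RSEM 1.3.1 and GRCm38.p6, whereas the study's methods name STAR, HTSeq and edgeR, so which of these made the TPM values is not settled. TPM holds no read numbers, and no counting error was given.

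Groups came from the labels. KO ConA was compared with WT ConA with limma 3.58.1 (trend, R 4.3.3) on log2(TPM + 1) over genes at 1 TPM or more in at least 4 of the 8 libraries. The saline contrast and the interaction came from 1 fit of 4 groups over genes at 1 TPM or more in at least 3 libraries, with WT saline replicates 2 and 3 averaged. Nothing in the labels says that the mice were independent litters, so p-values measure the spread between these mice. In simulated data 66.5% of genes changed by a log2 of 1 and 97.0% of those changed by 2 were called, with 3 and 11 false calls. The simulated noise was independent between genes, without shifts of a whole library such as that of WT ConA replicate 3. The changed genes were picked from the better expressed ones. These rates may therefore be too favourable for the real libraries.

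Named are the Ythdf genes, all called genes, Ifng, Tnf, Il6 and Cxcl1, markers, and up to 3 genes with the smallest p of each list described. Ccn1, Fos, Egr1, Lcn2, Serpina1e, C8b, Cyp2a4, Cyp2b9, Cyp4a12a and those of the closing section were named after their values were seen. The comparison and the 61 lists were chosen with earlier results of these data known. Lists are described by counts and medians, without a test. Results of 2 genes that the rule would name are not reported here. Sequences, positions and promoter windows are RefSeq's, matched by gene identifier (17604 of 17656 genes). Unique stretches were counted in GENCODE vM21 transcripts. Also run were fits with a pseudocount of 0.1, with another filter (5 TPM) or none, on rescaled libraries, over all 14 libraries, robust, without trend, with a replicate block, and without 1 library at a time. Python 3.11.15 with pandas 2.3.3 and matplotlib 3.10.9 made the tables and figures.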

Additional observations from a re-analysis of the deposited data

Results flagged for a closer look

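Within a group of 4 mice, 1 mouse stood far from the others in a gap test (Dixon) for 13 of the 214 groups checked, and chance alone flags about 1 in 20. In WT ConA these were replicate 1 for Cyp3a16 (8.90 TPM), Sult2a1 (214 TPM), Sult2a3 (1.23 TPM) and Tubb6 (48.9 TPM), replicate 2 for Ly6d (8.31 TPM), replicate 3 for Tpm4 (22.9 TPM) and replicate 4 for Slco1a1 (31.0 TPM). In KO ConA they were replicate 3 for Ccl7 (104 TPM) and replicate 4 for Pdk4 (34.7 TPM). The rest were values near 0, namely Ddx3y at 0.02 TPM in WT ConA replicate 4 and KO ConA replicate 2, Cyp4a12a at 0.06 TPM and Prss2 at 0.78 TPM in KO ConA replicate 3. Without the mouse in question the calls of Slco1a1, Tpm4, Tubb6 and Ly6d had an adjusted p of 0.0263, 0.0441, 0.0409 and 0.0382.

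The genotype difference after ConA differed from that in saline, by the interaction term of limma, for Egr1 (4.42, adjusted p 0.0354), Igfbp1 (2.68, adjusted p 0.046), Maff (1.84, adjusted p 0.0456), Mid1 (2.25, adjusted p 0.00524), Ndufb4 (-1.30, adjusted p 0.0213), Papss1 (-1.87, adjusted p 0.00633), Serpina3f (1.996, adjusted p 0.00631), Serpina3m (2.19, adjusted p 0.00633), Serpina3n (1.61, adjusted p 0.00524), Sgms1 (1.84, adjusted p 0.046) and Slc2a1 (1.68, adjusted p 0.046). The saline difference was below 0 and the ConA difference above 0 in all of these except Papss1, which was lower in KO in both, and Ndufb4, which was higher by value in KO saline and lower after ConA.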

How the results depend on the processing

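Of the 45 called genes, 37 remained called with a pseudocount of 0.1, 37 of 40 with a filter at 5 TPM, 42 with a robust fit and 44 with all 14 libraries in the fit, and none changed direction under any of these or in the other alternatives. The counts moved more. With no filter 3 genes were called (1 higher, 2 lower) and without trend 18 (15 higher, 3 lower), and all 14 libraries gave 623 (408 higher, 215 lower). Rescaled libraries gave 21 higher, and without replicate 3 of both groups there were 5 lower. Leaving out 1 library gave 5 to 65 calls, 4 to 56 higher and 1 to 9 lower. The cause was not tested, beyond the smaller number of mice and, with no filter, the larger number of genes tested. The replicate numbers did not pair the ConA mice: the correlations of same-numbered WT and KO mice, as deviations from their group means, were -0.01, 0.13, 0.41 and 0.12 for replicates 1 to 4, and not every mouse correlated best with its own number. With the replicate block there were 140 calls, 116 higher and 24 lower, 42 of the 45 among them.

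The interaction count was 541 with WT saline replicates 2 and 3 kept apart, 15 with a pseudocount of 0.1, 6 in rescaled libraries, 358 with a replicate block, and 7 to 71 without 1 library. The saline count was 284 with that pair kept apart, 20 with a filter at 5 TPM, 92 with no filter, 319 with a replicate block, and 13 to 90 without 1 library. The sign was not settled for Ythdf1 (-0.0392 in rescaled libraries, -0.060 to 0.178 without 1 library), Ythdf3 (0.00866 without replicate 3 of both groups, -0.227 to 0.228) and Cxcl1 (-0.084 to 0.047). Depth is unknown, so genes near 1 TPM carry a counting error that cannot be given.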

Other observations

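Apart from Sult2a1, 4 genes of its cluster of bile acid and steroid sulfotransferases had some of the largest fold changes that were not called. Sult2a3 was at 1.23, 0.09, 0.00 and 0.00 TPM in WT ConA and 1.91, 4.11, 41.6 and 32.3 TPM in KO ConA (3.27 ± 0.76, adjusted p 0.0706). Sult2a4 was at 7.37, 3.09, 0.00 and 0.09 TPM and 13.2, 12.8, 33.8 and 24.99 TPM (3.05 ± 0.62, adjusted p 0.0651). Every KO value of Sult2a4 lay above every WT value, and in saline it was called higher in KO too (4.81, adjusted p 0.0196), as was Sult2a6 (4.98, adjusted p 0.0196). Sult2a5 (3.23 ± 0.72, adjusted p 0.0674) and Sult2a6 (2.93 ± 0.64, adjusted p 0.0669) were alike in size, and these copies may share reads.

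Serpina3n, a neighbour of Serpina3f and Serpina3m in the antichymotrypsin cluster, was at 346, 435 and 412 TPM in WT saline and 141, 179 and 172 TPM in KO saline, and at 6071, 6771, 6212 and 6235 TPM in WT ConA and 8797, 9300.0, 7587 and 7412 TPM in KO ConA. All 3 serpins were called lower in KO saline, with log2 fold changes of -1.12, -1.46 and -1.22 for Serpina3f, Serpina3m and Serpina3n, and had KO values above all WT values after ConA, where Serpina3f alone of them was called. Igfbp1, a liver binding protein of insulin-like growth factors, was at 53.5, 83.4 and 84.4 TPM in WT saline and 17.9, 29.1 and 35.4 TPM in KO saline, and at 571, 861, 536 and 1126 TPM in WT ConA and 1220.4, 1552, 2563 and 2729 TPM in KO ConA (interaction 2.68, adjusted p 0.046).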
